A study of Rattus norvegicus with 5 samples.

Results

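Voltage-gated potassium channels of the Kv4 family carry the somatodendritic A-type current, which turns on at voltages below the spike threshold, inactivates within a short time and sets how soon and how often a neuron fires. The channel is a complex. Pore subunits of the Kv4 family (Kcnd1, Kcnd2 and Kcnd3) bind cytoplasmic calcium-binding proteins called KChIPs (Kcnip1 to Kcnip4), which bring them to the cell surface and change their inactivation, and membrane-spanning proteins related to dipeptidyl peptidases (Dpp6 and Dpp10), which have no peptidase activity and speed up their gating. Granule cells, which are small glutamatergic neurons of the cerebellar cortex, are known for a large A-type current. The 9 genes named here were taken by their symbols. They have 19 of the 20826 Affymetrix probe sets with 1 gene symbol and were 9 of the 14217 genes measured on those arrays. On the two-colour arrays 7 of them have 11 probes, among 9653 genes.

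Granule cells were cultured from the cerebellum of 8-day-old Wistar rats in medium with 25 mM KCl and serum. Cytosine arabinoside at 10 µM, which suppresses the growth of glia, was given to all groups from a medium change late on day 1, so D1 cells had met it for a shorter time. RNA was taken on day 1 (D1), on day 5 (D5), and on day 5 from cells that had received 10 µM ICRF-193 daily (D5+). ICRF-193 is an inhibitor of DNA topoisomerase II whose target in these cells is the β isoform (topo IIβ), and the study asked which genes need this enzyme for their induction. Each RNA was hybridized to 1 Affymetrix array. Another pair of arrays set D5 (Cy5) against D1 (Cy3) and D5 (Cy5) against D5+ (Cy3). With 1 array for each condition there were no replicates, no p-value was computed, and a difference is given as the signals, their ratio and how they compare between probe sets and platforms. The deposited Affymetrix values are linear MAS5 signals, with medians of 32.9 (D1), 29.2 (D5) and 28.0 (D5+) over 31042 probe sets. A signal under the 40th percentile of its array (19.2 for D1, 16.7 for D5 and 16.3 for D5+) was counted as not above the floor. A gene was counted as expressed if it lay above the floor on D1 or D5 and also on D5 or D5+, as 10328 genes did. Signals of different probe sets depend on their oligonucleotides, so no difference in level between genes is read from them. The brightest probe set was taken as the value of a gene only as a rule of choice.

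By this rule 7 of the 9 genes were expressed, and Kcnip1 and Dpp10 were not. By the brightest probe set, D5 was the highest of the 3 conditions for all 7. The rule itself favours this, since a gene above the floor on D5 alone passes and a gene above it on D1 alone does not. Kcnip1 failed in the latter way, and the share of all expressed genes with D5 highest was not computed. D5 was over 2-fold of D1 as measured for Kcnd1, Kcnd2, Kcnip2, Kcnip3 and Kcnip4. It was 1.98-fold of D1 for Dpp6 and 1.01-fold for Kcnd3, whose dimmest probe set was highest on D1. Against a background of 9.57% of expressed genes past 2-fold higher on D5 than on D1, 5 of 7 members were past it. Both counts use signals as measured. Of the 5, Kcnd1 and Kcnip2 had D1 signals under the floor and passed the rule through the later arrays. With D1 read at the floor, D5 was at least 5.84-fold higher for Kcnip2 and at least 1.99-fold for Kcnd1, short of 2-fold. With ICRF-193, 5 of 7 members (Kcnd2, Kcnd3, Kcnip2, Kcnip4 and Dpp6) were past 2-fold lower than on D5, where 6.03% of expressed genes were. Kcnd2, Kcnip2 and Kcnip4 were past 2-fold in both ratios, 3 of 7 against 2.37% of expressed genes. The members were chosen with earlier results of these data known, and the study lists Kcnd2 among its A1 genes. These shares thus describe the set and do not test it. As a median over the 7 members, log2 D5/D1 was 1.52 where that of all expressed genes was -0.18. For log2 D5+/D5 the members' median was -1.46 where that of all expressed genes was -0.13. Both ratios use the same D5 array, so an error in a D5 signal moves them in opposite directions. In RNA of whole cultures fewer cells of a type and less RNA per cell cannot be told apart. Groups were assigned by the study's scheme, which sorts genes by both ratios, but with the floor in place of the study's absent calls. The study also normalized signals between arrays, while the groups here use signals as deposited, whose medians differ. Kcnd2, Kcnip2 and Kcnip4 fell in group A1 (higher on D5 and lower with ICRF-193). Kcnd1 and Kcnip3 fell in group A2 (higher on D5 only) and Dpp6 in group B1 (lower with ICRF-193 only). The group of Dpp6 depends on scaling. With each array scaled to the median of all probe sets, it had a log2 D5/D1 of 1.16 and a log2 D5+/D5 of -1.92. That is past 2-fold in both ratios, as in group A1, and the other scalings tried gave the same group. The probe sets of Kcnd3 fell in different groups.

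**Figure D1:**
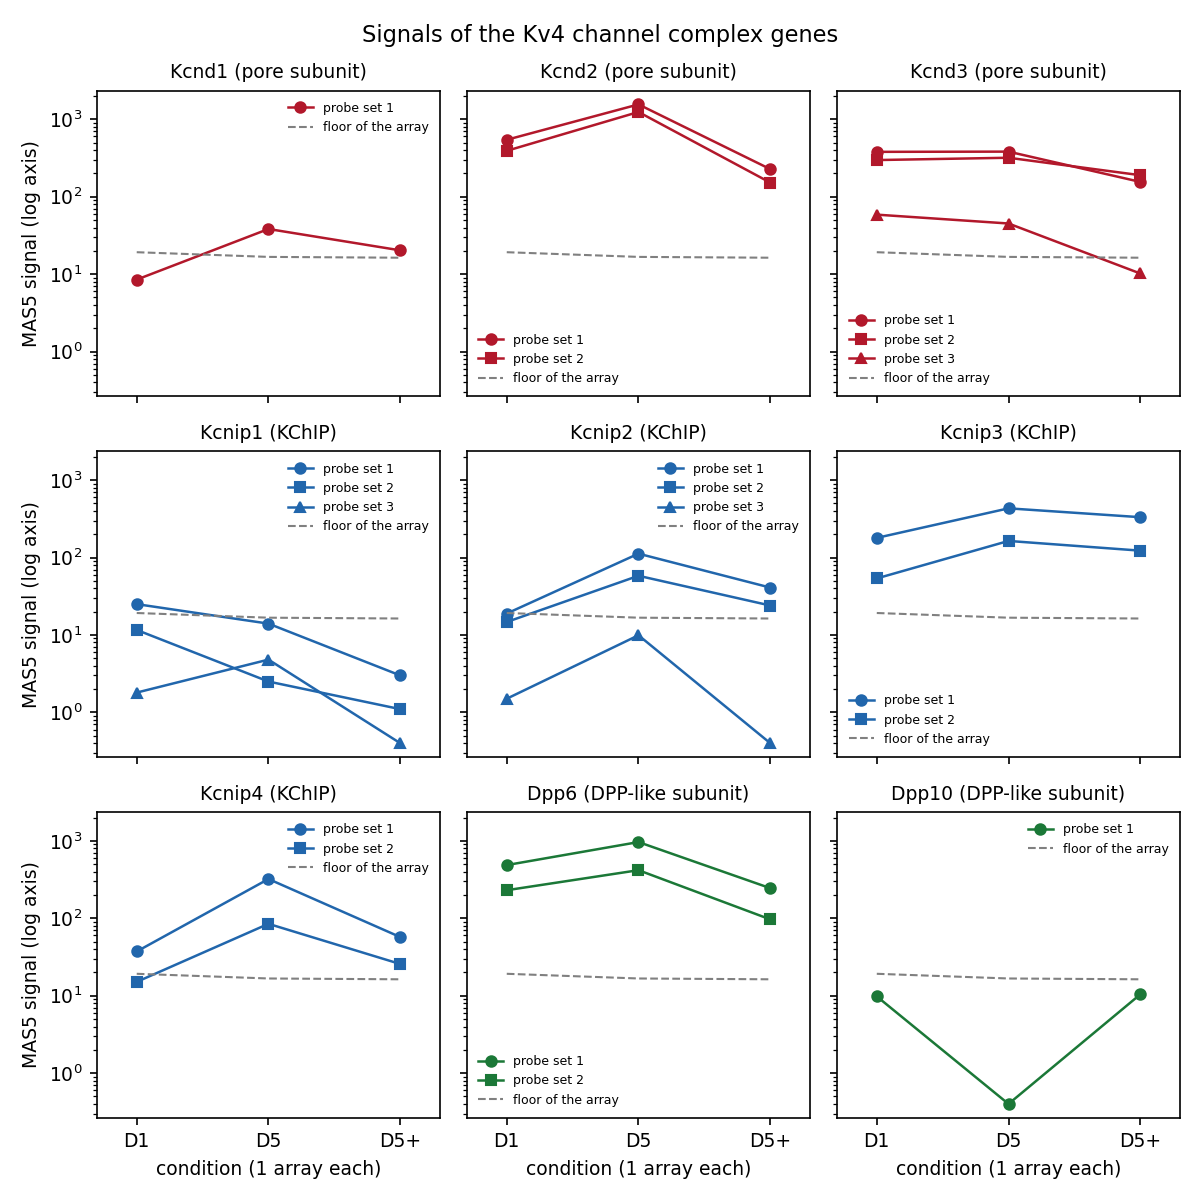
MAS5 signals of each probe set of the 9 genes (y axis, log scale) on the D1, D5 and D5+ arrays (x axis, 1 array each), with the floor of each array as a dashed line. Both probe sets of Kcnd2, Kcnip4 and Dpp6 have their highest signal on D5, while the probe sets of Kcnip1 and Dpp10 lie at or near the floor or below it.

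Among the pore subunits, Kcnd2 encodes Kv4.2, a main pore of the A-type current in the dendrites of many neurons. Its first probe set had signals of 544 (D1), 1559 (D5) and 227 (D5+). Its second probe set had 391.9 (D1), 1244 (D5) and 152 (D5+). Both were highest on D5 and lowest with ICRF-193, where the signal lay under that of D1. The ratio D5/D1 was 2.86-fold by the first probe set and 3.18-fold by the second. The ratio D5/D5+ was 6.86-fold and 8.17-fold. Of all 10328 expressed genes, Kcnd2 had the 66th lowest D5+/D5. In log2 units the probe sets differed from each other by 0.15 for D5/D1 and by 0.25 for D5+/D5, against values of 1.52 and -2.78 by the first.

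Kcnd3, which encodes Kv4.3, was even between D1 and D5 and lower with ICRF-193. Its first probe set had signals of 380 (D1), 382.6 (D5) and 155.5 (D5+), and its second had 298 (D1), 319 (D5) and 190 (D5+). The remaining, dimmer probe set had 58.7 (D1), 45.1 (D5) and 10.2 (D5+), the last under the floor. The log2 D5/D1 ranged from -0.38 to 0.10 over the 3 probe sets. The log2 D5+/D5 was -1.30, -0.75 and -2.14 in the same order, so the direction was shared and the size was not, and 2 of the 3 were past 2-fold. For the dimmest probe set, with D5+ read at the floor, D5 was at least 2.77-fold higher. The difference between Kcnd2 and Kcnd3 in D5/D1 was not tested.

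Kcnd1, which encodes Kv4.1, had signals near the floor, 8.5 (D1), 38.3 (D5) and 20.3 (D5+), from 1 probe set. The D1 signal lies under the floor. As measured, the D5 signal was 4.51-fold that of D1, but with D1 read at the floor it was at least 1.99-fold higher, short of the 2-fold line. The D5+ signal was 0.530 of that on D5, which did not pass 2-fold.

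The sequences around the start sites are shown for the 2 members past 2-fold in both ratios that have an entry in the RefSeq promoter table (Kcnd2 and Kcnip2) and for the 2 members past 2-fold lower with ICRF-193 only (Kcnd3 and Dpp6). Each runs from 250 bases before to 50 bases after an annotated start in the GRCr8 assembly. Kcnd2 lies at chr4:50742235-50742534 on the plus strand, Kcnip2 at chr1:254613849-254614148 on the minus strand, Kcnd3 at chr2:195626066-195626365 on the plus strand and Dpp6 at chr4:8995220-8995519 on the minus strand. Capitals mark matches to CANNTG, the E-box that basic helix-loop-helix factors such as Neurod1 bind. Its reverse complement has the same letters, so both strands are read at once.
Kcnd2: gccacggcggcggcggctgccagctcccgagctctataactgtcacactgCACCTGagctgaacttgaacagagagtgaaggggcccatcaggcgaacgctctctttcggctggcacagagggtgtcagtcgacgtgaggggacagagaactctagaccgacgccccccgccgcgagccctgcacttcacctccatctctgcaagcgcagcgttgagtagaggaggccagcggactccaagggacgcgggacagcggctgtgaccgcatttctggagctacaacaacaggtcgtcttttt
Kcnip2: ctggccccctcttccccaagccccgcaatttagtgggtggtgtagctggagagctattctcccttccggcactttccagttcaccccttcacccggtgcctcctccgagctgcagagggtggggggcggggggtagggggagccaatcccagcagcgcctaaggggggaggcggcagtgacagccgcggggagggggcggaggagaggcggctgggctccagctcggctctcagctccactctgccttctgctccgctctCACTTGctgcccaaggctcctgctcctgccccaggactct
Kcnd3: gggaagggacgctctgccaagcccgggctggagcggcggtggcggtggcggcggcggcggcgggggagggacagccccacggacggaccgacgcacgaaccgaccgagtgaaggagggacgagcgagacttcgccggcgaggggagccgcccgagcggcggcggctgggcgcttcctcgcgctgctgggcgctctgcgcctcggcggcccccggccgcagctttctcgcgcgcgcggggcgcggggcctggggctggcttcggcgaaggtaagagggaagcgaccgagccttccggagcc
Dpp6: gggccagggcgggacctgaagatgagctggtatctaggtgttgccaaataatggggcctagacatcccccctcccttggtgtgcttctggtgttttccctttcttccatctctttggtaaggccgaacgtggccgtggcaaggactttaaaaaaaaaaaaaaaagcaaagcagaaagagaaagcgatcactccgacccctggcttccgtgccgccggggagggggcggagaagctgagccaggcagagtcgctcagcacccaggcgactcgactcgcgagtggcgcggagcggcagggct
There was 1 match in Kcnd2 (CACCTG), 1 in Kcnip2 (CACTTG) and none in Kcnd3 or Dpp6. Such a match was present in 72.1% of all 33469 promoters of the same length. The letters TATAA, searched on both strands, matched in Kcnd2 alone of these 4 and in 26.2% of all promoters. The share of G and C was 61.7% for Kcnd2, 67.7% for Kcnip2, 77.7% for Kcnd3 and 58.3% for Dpp6, all above the median of 51.7% over all promoters. In all, 7 of the 9 members have 9 entries in the table, with 52.3 to 77.7% G and C. Kcnd1 and Kcnip4 were not matched there. A match of letters describes the sequence only.

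Among the KChIPs, Kcnip4 encodes KChIP4, which exists in forms that differ at the amino terminus, some of which slow the inactivation of Kv4 channels. The first probe set had signals of 37.3 (D1), 322 (D5) and 57.3 (D5+), and the second had 15.1 (D1), 84.9 (D5) and 25.7 (D5+), the D1 signal of the second lying under the floor. Both peaked on D5, and with ICRF-193 both stayed somewhat above D1. The D5/D1 ratio was 8.63-fold by the first probe set and at least 4.42-fold by the second with D1 read at the floor. The D5/D5+ ratio was 5.62-fold by the first and 3.30-fold by the second. Among expressed genes Kcnip4 had the 102nd highest D5/D1 and the 88th lowest D5+/D5.

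Kcnip2, whose protein KChIP2 is best known as the partner of Kv4 channels in the heart and is also found in brain, had signals of 18.9 (D1), 112 (D5) and 40.9 (D5+) by its first probe set. Its second probe set had 14.7 (D1), 58.1 (D5) and 24.0 (D5+). All D1 signals of this gene lay under the floor. With D1 read at the floor, D5 was at least 5.84-fold higher by the first probe set and at least 3.03-fold higher by the second, and D5/D5+ was 2.74-fold and 2.42-fold. The remaining probe set was under the floor on all arrays, with 1.5 (D1), 9.9 (D5) and 0.4 (D5+).

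Kcnip3 encodes KChIP3, also known as calsenilin and as the transcriptional repressor DREAM. It had signals of 179 (D1), 432 (D5) and 332 (D5+) by its first probe set and 53.7 (D1), 164 (D5) and 123 (D5+) by its second. Both were higher on D5 than on D1, by 2.41-fold and 3.05-fold. The log2 D5+/D5 was -0.38 and -0.42, short of 2-fold. Of the expressed genes 25.4% had a lower D5+/D5 than Kcnip3.

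Kcnip1, whose protein KChIP1 is known from inhibitory neurons among others, had signals of 25.0 (D1), 14.0 (D5) and 3.0 (D5+) by its first probe set. The other 2 probe sets were under the floor on all arrays, between 0.4 and 11.6. Only the D1 signal of the first probe set lay above the floor, and no fold is given between D5 and D5+.

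Dpp6 encodes the subunit DPP6 (also called DPPX), which raises the surface level of Kv4 channels and speeds their recovery from inactivation. Its first probe set had signals of 487 (D1), 966 (D5) and 245 (D5+). Its second had 231 (D1), 419 (D5) and 96.9 (D5+). Both were highest on D5 and lowest on D5+. The D5/D1 ratio was 1.98-fold and 1.81-fold, just under the 2-fold line, and the D5/D5+ ratio was 3.94-fold and 4.32-fold. Dpp6 had the 145th lowest D5+/D5 of the expressed genes. Dpp10, its relative with a similar effect on Kv4 gating, had 1 Affymetrix probe set with signals of 9.8 (D1), 0.4 (D5) and 10.4 (D5+), all under the floor, so no fold is given.

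**Figure D2:**
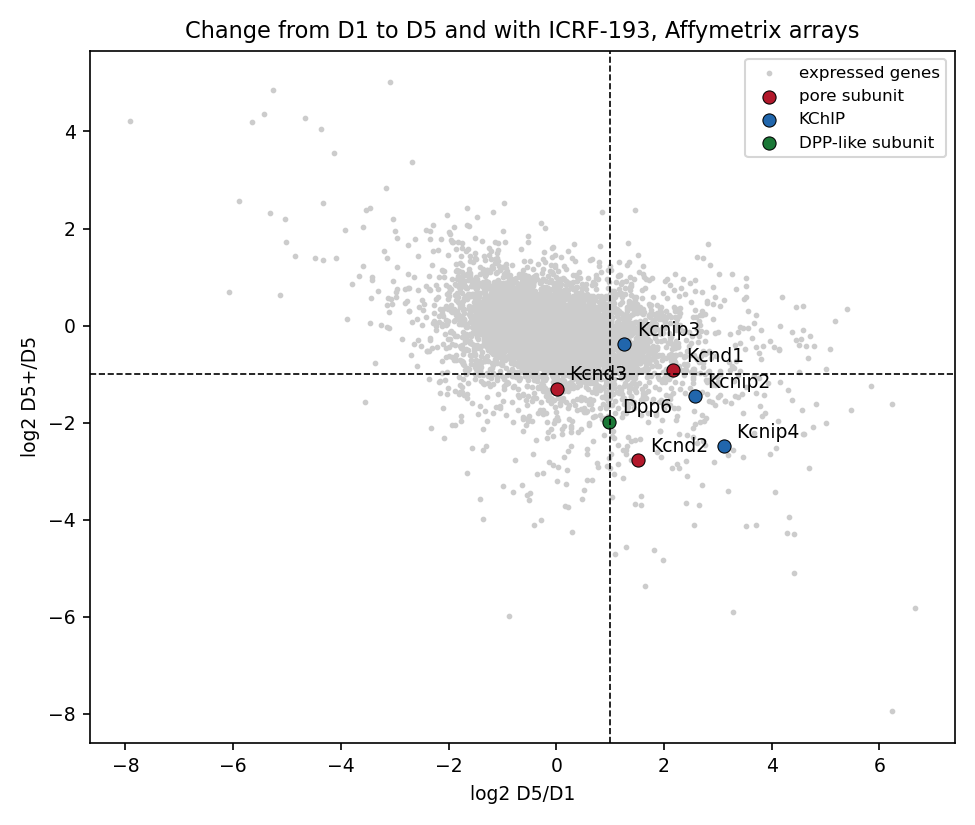
Log2 D5/D1 (x axis) against log2 D5+/D5 (y axis) for the 10328 expressed genes (grey) and the 7 expressed members (coloured by subunit class), with dashed lines at 2-fold higher on D5 and 2-fold lower on D5+. Kcnd2, Kcnip2 and Kcnip4 lie past both lines, Kcnd3 and Dpp6 past the lower line only, and Kcnip3 and Kcnd1 past the line for D5 only.

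How far probe sets of 1 gene differ measures disagreement between probe sets read on the same arrays. It leaves out variation between cultures, labellings and arrays. Over all genes with at least 2 expressed probe sets, the SD of log2 D5+/D5 between such probe sets was 0.61 at mean signals under 50, 0.32 at 50 to 200 and 0.17 at 200 and over. For log2 D5/D1 it was 0.63, 0.35 and 0.23. The D5+/D5 values of Kcnd2 (-2.78), Kcnip4 (-2.49) and Dpp6 (-1.98) were several times this SD in size, which is no test of the difference between conditions. The 3 probe sets of Kcnd3 spanned 1.40 in this ratio. That of Kcnd1 (-0.92) rests on 1 probe set with a mean signal under 50, where the SD was 0.61. The member genes had 2 or 3 probe sets in 7 of 9 cases. Where at least 2 of these were expressed, their signs for log2 D5+/D5 did not differ, and the signs for log2 D5/D1 differed for Kcnd3 only.

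The ratio of D5+ to D1 does not use the D5 array. Kcnd2 and Kcnd3 were past 2-fold lower on D5+ than on D1, with 0.418 and 0.409 of the D1 signal, 2 of 7 members against 13.0% of expressed genes. Of the other probe sets of Kcnd3, the second was short of the line, at 0.638 of its D1 signal, and the dimmest was past it, also with D5+ read at the floor. The second probe set of Kcnd2 had 0.389 of its D1 signal. Dpp6, at 0.503 of its D1 signal, was just short of the line by its first probe set and past it, at 0.420, by its second. Kcnd1 and Kcnip2 were past 2-fold higher on D5+ than on D1 as measured (2 of 7 members against 7.27% of expressed genes), but their D1 signals lie under the floor, and with D1 read at the floor the D5+ signal was at least 1.06-fold and 2.13-fold higher. By the second probe set of Kcnip2 it was at least 1.25-fold higher. Kcnip3 had 1.85-fold and Kcnip4 1.54-fold of the D1 signal on D5+. The 3 expressed KChIPs and Kcnd1 thus lay above their D1 signal on D5+, and Kcnd2, Kcnd3 and Dpp6 lay below it. The median log2 D5+/D1 of all expressed genes was -0.31 as deposited and -0.02 after each array was scaled to the median of its probe sets above the floor. That scaling took Kcnd2 from -1.26 to -0.98, short of 2-fold, Kcnd3 from -1.29 to -1.01 and Dpp6 from -0.99 to -0.71. It took Kcnip3 from 0.89 to 1.17, past 2-fold.

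**Figure D3:**
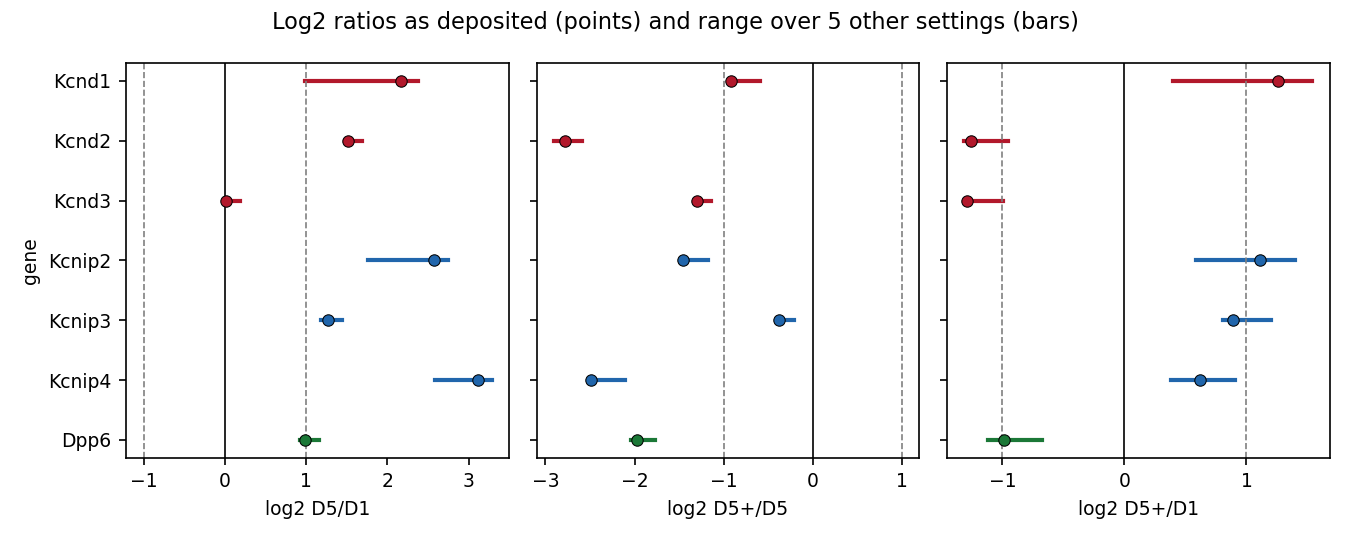
Log2 ratios of the 7 expressed members (points, values as deposited) for D5/D1, D5+/D5 and D5+/D1, with bars from the lowest to the highest value over 5 other settings (3 scalings, an added offset, and the median over probe sets), and dashed lines at 2-fold. Kcnd2, Kcnd3, Kcnip2, Kcnip4 and Dpp6 stay below the lower line for D5+/D5 in all 5 settings, and no member changes sign in any panel, though Kcnd3 reaches 0 for D5/D1.

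The two-colour arrays gave values for 7 members. Their deposited log ratios have no stated base, so they are read by sign and rank and by folds under both a log2 and a natural log reading. Kcnd2 had D5/D1 log ratios of 1.44 and 1.14 by its pair of probes and D5/D5+ log ratios of 1.94 and 1.73. The mean D5/D5+ of Kcnd2, 1.84, was the 17th highest of 9623 genes, 3.57-fold if log2 and 6.28-fold if natural log. Dpp6 had 0.50 for D5/D1 and 1.03 for D5/D5+, the latter the 79th highest. Both genes thus had the larger value for D5 against D5+, as they had on the Affymetrix arrays.

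Kcnip3 had two-colour log ratios of 0.73 for D5/D1 and 0.19 for D5/D5+. Kcnip2 had 0.44 and 0.37, and Kcnd1 had 0.49 and 0.31. All of these are above 0, and the difference between the 2 ratios was widest for Kcnip3. For D5/D1 and D5/D5+, Kcnip2 had 1.36-fold and 1.30-fold if log2, or 1.56-fold and 1.45-fold if natural log. Kcnd1 had 1.40-fold and 1.24-fold if log2, or 1.63-fold and 1.36-fold if natural log. Kcnip2 was thus short of 2-fold in both contrasts under either reading, unlike on the Affymetrix arrays. Dpp10, not above the floor on the Affymetrix arrays, had 3 probes with D5/D5+ values of 1.17, 0.38 and 0.22 and D5/D1 values of 0.69, 0.10 and -0.10, so its probes shared a sign for D5/D5+ and not for D5/D1. Its mean D5/D5+ of 0.59 was above that of 97.3% of genes. Kcnip1 had D5/D5+ values of -0.14 and -0.48 and D5/D1 values of 0.37 and -0.08, in different directions for D5/D1. Kcnd3 and Kcnip4 were not analysed on these arrays.

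**Figure D4:**
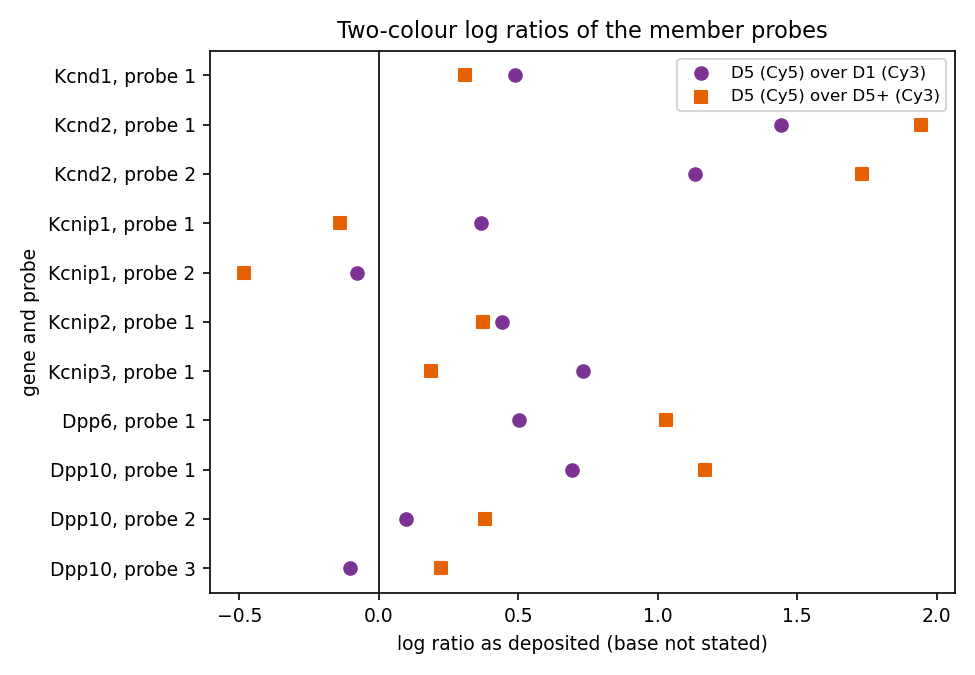
Deposited log ratios (x axis, base not stated) of the 11 two-colour probes of 7 member genes (y axis) for D5 over D1 (circles) and D5 over D5+ (squares). The probes of Kcnd2 lie between 1.14 and 1.94, and both probes of Kcnip1 lie below 0 for D5 over D5+.

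By gene means, D5/D1 was above 0 for 7 of 7 members (51.8% of all genes) and D5/D5+ for 6 of 7 (51.0% of all genes). Among the 5 members that were also expressed on the Affymetrix arrays the sign of both ratios was the same on both platforms. All 5 had both two-colour ratios above 0, as had 33.9% of the 9619 two-colour genes with both ratios. D5 was labelled with Cy5 on both two-colour arrays, with no dye swap. An error in D5 or a dye effect of a probe thus moves both log ratios in the same direction. The share of all genes with the same signs on both platforms was not computed. Across the 6782 genes expressed on the Affymetrix arrays and also measured on the two-colour arrays, the ratios of both platforms correlated with r = 0.61 (D5/D1) and r = 0.52 (D5/D5+), as a description, since genes are no replicates. The sources used here do not say whether both platforms used RNA of the same cultures.

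The member of each class with the highest signal (Kcnd2, Kcnip3 and Dpp6) was taken as a reference, by a rule of choice that does not rank the levels of the genes. Genes with patterns most like it were found by the distance in log2 D5/D1 and log2 D5+/D5, over the 9285 genes above the floor on all 3 arrays. The 5 nearest to Kcnd2 were Ralyl, Ass1, Brinp1, Lsamp and Mlc1, at distances of 0.12 to 0.38. Ralyl, an RNA-binding protein gene, had signals of 144 (D1), 377.9 (D5) and 55.8 (D5+), and Brinp1, a neuronal gene known as a brake on cell division, had 300.5 (D1), 743 (D5) and 126 (D5+). Lsamp, an adhesion protein of the IgLON family, had 169.8 (D1), 399.5 (D5) and 67.7 (D5+). Mlc1, a membrane protein of astrocytes, had 80.9 (D1), 179.5 (D5) and 24.8 (D5+). On the two-colour arrays Ralyl, Ass1 and Brinp1 had both log ratios above 0, as Kcnd2 had, and no value was used for Lsamp and Mlc1. Of all 9619 two-colour genes with both ratios, 33.9% had both above 0. The 5 nearest to Dpp6 were Car10, Nefm, Synpr, Pcdh9 and Masp1, at distances of 0.05 to 0.29. Of these Synpr and Pcdh9 had both two-colour log ratios above 0, as Dpp6 had, but Nefm and Masp1 had D5/D5+ log ratios of -0.48 and -0.60. Those nearest to Kcnip3 were Serpinf1, Xylt2, Itm2c, Nrp2 and Zdhhc18, at 0.04 to 0.06. Of these Serpinf1 and Itm2c had both two-colour log ratios above 0, as Kcnip3 had. Xylt2 had -0.17 for D5/D5+, Nrp2 had -0.16 for D5/D1 and -0.11 for D5/D5+, and Zdhhc18 had -0.13 and -0.33. With 3 arrays such a likeness rests on 2 ratios.

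The nearest gene annotated as protein-coding on each side of a member was also looked up. Of 18 such neighbours 14 were measured and 12 expressed, and 1 of these 12 was past 2-fold higher on D5 than on D1 and also past 2-fold lower with ICRF-193. Of all expressed genes 9.57% were past the first line, 6.03% past the second and 2.37% past both. Lcp2, next to Kcnip1, had a log2 D5/D1 of -1.08, past 2-fold lower. The medians of the 12 were -0.47 for log2 D5/D1 and 0.17 for log2 D5+/D5, where those of all expressed genes were -0.18 and -0.13. Tspan12, a tetraspanin gene next to Kcnd2, had signals of 241 (D1), 288 (D5) and 187 (D5+). The genes next to Kcnip4 had log2 D5+/D5 of 0.38 (Adgra3, an adhesion receptor) and 0.24 (Pacrgl). The genes on both sides of Kcnd3, Cttnbp2nl and Ddx20, had 0.35 and 0.17. The gene past 2-fold in both was Actr3b, a gene of the actin-related Arp2/3 complex beside Dpp6, with signals of 37.2 (D1), 327 (D5) and 112 (D5+). Paxip1, on the other side of Dpp6, had 185 (D1), 142 (D5) and 119 (D5+).

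Other genes that act on or resemble this complex were taken from lists. Beside the counts of these lists, 9.57% of all expressed genes were past 2-fold higher on D5 than on D1. The shares were 6.03% for past 2-fold lower with ICRF-193 and 2.37% for both. Of 4 other pore genes that can give an inactivating current, 3 were measured and expressed, 2 of them past 2-fold higher on D5 than on D1 and 1 past 2-fold lower with ICRF-193. Their medians were 1.70 for log2 D5/D1 and -0.53 for log2 D5+/D5. Kcna4, whose Kv1.4 channel inactivates by itself, had 41.5 (D1), 285 (D5) and 131 (D5+), past 2-fold in both ratios. Kcna1 (Kv1.1) had 28.8 (D1), 93.7 (D5) and 64.9 (D5+), and Kcnc4 (Kv3.4) had 32.5 (D1), 32.4 (D5) and 46.6 (D5+). On the two-colour arrays Kcna4 had log ratios of 0.14 for D5/D1 and 0.32 for D5/D5+.

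Of 8 genes of Kv beta and MinK-like subunits 7 were measured and 3 expressed, with medians of 0.38 for log2 D5/D1 and -0.18 for log2 D5+/D5. Kcnab1, whose Kvβ1 subunit gives fast inactivation to Kv1 channels, was past 2-fold in both ratios, with 102 (D1), 604.5 (D5) and 179.5 (D5+). On the two-colour arrays it had log ratios of 1.73 for D5/D1 and 1.23 for D5/D5+. The other expressed genes of this list, Kcnab2 and Kcne4, had log2 D5+/D5 of 0.18 and -0.18.

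Of 12 genes of scaffold, kinase and trafficking partners 9 were measured and 8 expressed. Of these 3 were past 2-fold higher on D5 than on D1, 1 past 2-fold lower, and 1 past 2-fold lower with ICRF-193, with medians of 0.26 for log2 D5/D1 and -0.46 for log2 D5+/D5. The latter was Camk2d, a subunit of the calcium/calmodulin-dependent kinase II that phosphorylates Kv4 channels, with a log2 D5/D1 of 1.29 and a log2 D5+/D5 of -1.79. Dlg4, which encodes the scaffold PSD-95, had 137 (D1), 302 (D5) and 213 (D5+). Nedd4l, a ubiquitin ligase, had 174 (D1), 71.2 (D5) and 55.3 (D5+). Akap5, the anchoring protein of protein kinase A, had 7.7 (D1), 24.6 (D5) and 13.9 (D5+), under the floor on D1 and D5+. It counts as past 2-fold higher on D5 as measured, but not with D1 read at the floor of 19.2. Flnc, a filamin of the family that links Kv4.2 to actin, had a log2 D5+/D5 of -0.66 at signals of 42.2 on D5 and 26.7 on D5+.

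Of 9 neuronal calcium sensors, the family to which KChIPs belong, 5 were expressed, and 4 of these (Ncs1, Hpcal1, Vsnl1 and Ncald) were past 2-fold higher on D5 than on D1. None of the 5 was past 2-fold lower with ICRF-193, where 6.03% of all expressed genes were, so this count says little. Vsnl1 had signals of 535 (D1), 1432 (D5) and 1076 (D5+), and Ncald had 223 (D1), 684 (D5) and 363 (D5+). The medians of this list were 1.19 for log2 D5/D1 and -0.30 for log2 D5+/D5, where the expressed KChIPs had -0.38 (Kcnip3), -1.46 (Kcnip2) and -2.49 (Kcnip4). Of 7 peptidases of the DPP family and its relatives 6 were measured and 4 expressed, and none of these was past 2-fold in either ratio. Their medians were -0.15 for log2 D5/D1 and -0.04 for log2 D5+/D5, against -1.98 for Dpp6. Dpp7 had 306 (D1), 421 (D5) and 338 (D5+), and Dpp8 had 294 (D1), 185 (D5) and 173 (D5+).

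Markers of the cultured cells were checked in the same way, where 6.03% of all expressed genes were past 2-fold lower with ICRF-193. A sum of signals over a list is led by its brightest probe sets, so single markers are given beside it. Of 11 markers of granule neurons 10 were measured and expressed, and none of the 10 was past 2-fold lower with ICRF-193. From D1 to D5, Gabra6, Slc17a7 and Grin2c were past 2-fold higher and Pax6, Zic1 and Rbfox3 past 2-fold lower. The summed signals of the 10 were 9914 (D1), 7889 (D5) and 7760 (D5+), of which Neurod1 made up 5654 (D1), 3072 (D5) and 2687 (D5+). Of 5 general neuron markers, with sums of 10063 (D1), 7634 (D5) and 7551 (D5+), Syt1 was past 2-fold lower with ICRF-193, at 390.4 on D5 and 89.0 on D5+, and Tubb3, Map2, Snap25 and Stmn2 were not.

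Markers of other cells were also present, and their lists were mixed. Of 8 astrocyte markers 5 (Gfap, Aqp4, Aldh1l1, Slc1a3 and Aldoc) were past 2-fold lower with ICRF-193, where 6.03% of expressed genes were. S100b and Gja1 had higher signals on D5+ than on D5, with log2 D5+/D5 of 0.60 and 0.21, and Slc1a2 was under the floor on all arrays. The astrocyte list summed to 3727 (D1), 5064 (D5) and 2264.5 (D5+). Of 6 inhibitory interneuron markers Pvalb and Sst were past 2-fold lower with ICRF-193, at log2 D5+/D5 of -3.70 and -2.10. Gad2 was past 2-fold higher, at 1.46, Slc32a1 and Pax2 had 0.61 and 0.62, and Slc6a5 was under the floor on all arrays. The median of the expressed interneuron markers was 0.61, opposite in sign to the change of their sum, 617 (D1), 710.5 (D5) and 313 (D5+), which Sst led with 577.5 on D5 and 134.6 on D5+. The 5 Purkinje cell markers summed to 804 (D1), 2212 (D5) and 1195 (D5+), of which Itpr1, a calcium release channel, made up 201 (D1), 1436 (D5) and 489.9 (D5+). Of the other Purkinje cell markers Pcp2 had a log2 D5+/D5 of -0.25, Calb1 -0.89, Car8 0.04 and Gad1 0.07. The unipolar brush cell pair of markers summed to 266 (D1), 23.6 (D5) and 116.5 (D5+), and the 5 microglia markers to 394 (D1), 336 (D5) and 308 (D5+). The 4 fibroblast and meningeal markers summed to 214 (D1), 1212 (D5) and 3352 (D5+), the 6 endothelial and mural markers to 266 (D1), 470 (D5) and 724 (D5+), and the 8 measured oligodendrocyte lineage markers to 2188 (D1), 1493 (D5) and 2304 (D5+). Pecam1, Vwf, Olig2 and Cspg4 were under the floor on all arrays. The astrocyte, interneuron and Purkinje cell lists thus held markers past 2-fold lower on D5+ than on D5 beside others that were not. S100b, Gja1, Gad2, Slc32a1 and Pax2 were higher on D5+, and the Purkinje cell markers besides Itpr1 were short of 2-fold. The part of other cells in the members' values was not tested.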

How the data were processed

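Rat granule cell cultures were measured on 3 Affymetrix and 2 two-colour arrays, 1 for each condition or contrast. What the authors deposited for the Affymetrix arrays are signal intensities on a linear scale from GCOS with the MAS5 algorithm. No version of either is given in the labels or methods. The methods state a normalization by the 50th percentile, but the medians of the arrays differ, and no scaling was added. For the two-colour arrays the authors gave log ratios (Cy5 over Cy3), with no word on base, background correction or normalization, and with 62 and 96 of 20500 values missing.

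Symbols came from the array annotation, checked through gene IDs against the GRCr8 table, which was used for names, neighbours and promoter sequences only. Of the Affymetrix probe sets, 20826 had 1 symbol and 436 several, and 12750 two-colour probes had 1. A gene has the value of its brightest probe set, by mean log2 signal (two-colour: the mean over its probes). Signals of 0 were read as 0.1. A gene was called past 2-fold at a ratio of 2 or more, or of 0.5 or less. Folds against a signal under the floor are given as "at least", against the floor of that array. Detection calls were not used here. The number of arrays limits the precision.

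Named genes were all members, of each other list those past 2-fold in both ratios and otherwise up to 2 with the largest change of each ratio, the 5 genes nearest in pattern, the neighbours, and markers that a result turned on. Other calcium sensors and scaffold genes past 2-fold were named after their values were seen, to account for a count. The members and lists were chosen with earlier results of these data known. Alternatives were other floors, thresholds, scalings, an added offset and other rules for probe sets. The natural log reading was added after the data had been seen. Calls were tested on simulated data with known changes. Python 3.11.15, pandas 2.3.3 and numpy 2.4.6 were used.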

Additional observations from a re-analysis of the deposited data

How the results depend on the processing

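No paired analysis was possible because each condition had 1 array. The counts of members past 2-fold higher on D5 than on D1 and past 2-fold lower on D5+ than on D5 stayed within 1.5 times of 5 under every floor, scaling, offset and rule for probe sets that was tried, and the medians of both ratios kept their direction. The threshold mattered more. At 1.5-fold 5 members were past it in both ratios and 7 between D5+ and D1. The lower quartile of log2 D5+/D1 over all expressed genes, -0.68, was itself past 1.5-fold lower. At 3-fold 3 members (Kcnd1, Kcnip2 and Kcnip4) were past it for D5/D1, 3 (Kcnd2, Kcnip4 and Dpp6) for D5+/D5, 1 (Kcnip4) in both and 0 between D5+ and D1. The shares of all expressed genes at 1.5-fold and 3-fold were not computed, so these counts cannot be set against a background. The D5+ against D1 comparison was the least stable. Its median over the members, 0.62 as deposited, was 0.086 with the floor at the 20th percentile, 0.086 with no floor and -0.19 with the floor at the 60th percentile, as the set of expressed members changed from 7 to 9, 9 and 6. With the floor of each array added to every signal 2 members (Kcnd2 and Kcnd3) were past 2-fold in place of 4, and under quantile normalization Kcnd2 (-0.95) and Kcnd3 (-0.995) were short of 2-fold. The scalings took Dpp6 past 2-fold for D5/D1, at up to 1.16, and thus past 2-fold in both ratios. With the added offset Kcnd1 had a log2 D5/D1 of 0.99. Turning the two-colour signs gives only the complements of the counts above 0, 0 of 7 members for D5/D1 and 1 of 7 for D5/D5+, and is no test. Centring left both counts as they were. Counted by probe, 9 of 11 were above 0 for D5/D1 and 9 of 11 for D5/D5+. Of 105 further values of single members under 5 settings, 90 moved by less than the SD between probe sets of 1 gene and 15 by more, and none reversed. Reading the two-colour values as natural logs was a choice made after the data had been seen. It must change each fold and can change no sign, so it is no test of direction. Signals near the floor limit Kcnd1, Kcnip1, Kcnip2 and Dpp10 the most.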
